A study of Mus musculus with 284 samples.

Results

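The genes described here encode the proteasome, and they were chosen by symbol: all Psma, Psmb, Psmc, Psmd and Psme genes followed by a number, without pseudogenes and without the 3 immunoproteasome subunits Psmb8, Psmb9 and Psmb10. Of the 54247 gene IDs of the table, 42 matched, and the 40 detected in 20% or more of each mouse's cells were used. They comprised 7 alpha and 7 beta subunits of the 20S core, 6 ATPases, 11 non-ATPase subunits and 3 base assembly chaperones of the 19S regulatory particle, 5 activator genes, and Psmc3ip, a meiotic recombination factor that shares the letters but is no subunit. The 2 genes not used were Psma8, a testis variant listed at 0 in all 4 mice, and Psmb11, a thymus variant with counts in 1 cell of KO1 (1.37% of its cells).

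The series holds 284 single tumour propagating cells of C57BL/6 mice, sequenced with Smart-seq2. Every mouse had received the carcinogen DMBA once at 8 weeks of age and the tumour promoter TPA for over 20 weeks. Cells were sorted from skin tumours by CD34, CD49f and a YFP reporter that Keratin14-driven Cre switches on in epidermal cells. Mice WT1 (69 cells) and WT2 (88 cells) were labelled wild type, and KO1 (73 cells) and KO3 (54 cells) were labelled Sirt6-/-, with no account of how that allele was made. The mouse was the replicate, so every comparison of genotypes set 2 mice against 2. Each plate held a single genotype, and plate and genotype therefore cannot be told apart.

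Summed counts per mouse lay between 66335552 and 92622682, and single cells had 523999 to 1684464 counts. WT2 had the fewest detected genes per cell (median 5784, against 6367 to 7009 in the other mice). Levels are given in CPM, counts scaled to a common library total. Sirt6 transcripts were present in all 4 mice, at 16.4 CPM (WT1), 26.4 (WT2), 26.3 (KO1) and 14.5 (KO3), so the transcript level goes against the label. Gene counts do not show from which exons they come, and the groups are called by their labels throughout. The 6 keratinocyte markers summed to between 26789 and 39587 CPM in the 4 mice. Fibroblast, endothelial and melanocyte markers summed to at most 4.69 CPM, and the 8 immune markers to 20.9 CPM in WT2 and 0.050 to 1.68 CPM in the others.

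The proteasome degrades proteins tagged with ubiquitin. Its 20S core is a barrel of stacked alpha and beta rings, in which Psmb5, Psmb6 and Psmb7 encode the constitutive catalytic subunits. The 19S particle caps the barrel: its ATPases unfold the substrate, and its other subunits bind ubiquitin chains and remove them. PA28 (Psme1 and Psme2, or Psme3 in the nucleus) and PA200 (Psme4) are alternative caps. Subunit genes are known to be switched on together by the transcription factor NRF1 (Nfe2l1) through antioxidant response elements, and the immunoproteasome and PA28 genes by interferon.

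Because these genes are known for shared promoter elements, the RefSeq promoter windows (GRCm38.p6, 250 bases before to 50 after the annotated start) were searched on both strands for 3 motifs. Windows were found for 28 of the 34 core and regulatory genes and for all 5 activator genes. The antioxidant-type motif TGACNNNGC was present in 5 of 30 windows of the core and regulatory genes (16.7%), against 12.4% of all 32851 windows. CCAAT, the box bound by NF-Y, was present in 6 of 12 core windows (50.0%) and 11 of the 30 (36.7%), against 37.4% of all windows. The interferon-type motif GAAANNGAA was present in 5 of the 30 (16.7%), against 8.56% of all windows. It was present in 1 of 6 activator windows, that of Psme1, and in 0 of 3 immunoproteasome windows. Some windows, such as those of Psme2, Psma4 and Psma5, held none of the 3 motifs. Only the motif letters were matched, so a match is a description of the sequence and not of binding.

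The windows below belong to 3 beta subunits and to the 2 activators whose levels differed most between the genotype labels, with every motif match in capitals, 5′ to 3′ on the gene's strand. Psmb5 (chr14:54617946-54618245, minus strand) holds the antioxidant-type motif at position -47, counted from 0 at the annotated start. Psmb6 (chr11:70525107-70525406, plus strand) holds it at -9. Psmb3 (chr11:97703184-97703483, plus strand) holds CCAAT at -85 and -43 and the interferon-type motif at -162, the last on the opposite strand. Psme1 (chr14:55578244-55578543, plus strand) holds the interferon-type motif at 10, on the opposite strand. Psme4 (chr11:30771525-30771824, plus strand) holds the antioxidant-type motif at -7, on the opposite strand.
Psmb5: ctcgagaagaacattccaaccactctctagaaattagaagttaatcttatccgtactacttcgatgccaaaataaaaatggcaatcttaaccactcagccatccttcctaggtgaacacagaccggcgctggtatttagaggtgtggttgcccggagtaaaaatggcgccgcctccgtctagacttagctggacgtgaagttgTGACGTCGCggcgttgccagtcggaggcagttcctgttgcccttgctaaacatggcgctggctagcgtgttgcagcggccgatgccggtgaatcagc
Psmb6: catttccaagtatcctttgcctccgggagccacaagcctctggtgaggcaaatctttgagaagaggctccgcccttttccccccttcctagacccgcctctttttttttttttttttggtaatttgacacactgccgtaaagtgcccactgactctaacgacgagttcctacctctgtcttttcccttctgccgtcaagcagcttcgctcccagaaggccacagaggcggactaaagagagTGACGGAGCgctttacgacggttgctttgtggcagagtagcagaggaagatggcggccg
Psmb3: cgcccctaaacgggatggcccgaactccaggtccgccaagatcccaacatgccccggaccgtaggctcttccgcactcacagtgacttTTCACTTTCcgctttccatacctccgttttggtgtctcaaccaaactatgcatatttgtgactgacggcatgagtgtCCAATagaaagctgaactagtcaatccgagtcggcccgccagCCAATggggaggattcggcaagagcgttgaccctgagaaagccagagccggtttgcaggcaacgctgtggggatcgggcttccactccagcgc
Psme1: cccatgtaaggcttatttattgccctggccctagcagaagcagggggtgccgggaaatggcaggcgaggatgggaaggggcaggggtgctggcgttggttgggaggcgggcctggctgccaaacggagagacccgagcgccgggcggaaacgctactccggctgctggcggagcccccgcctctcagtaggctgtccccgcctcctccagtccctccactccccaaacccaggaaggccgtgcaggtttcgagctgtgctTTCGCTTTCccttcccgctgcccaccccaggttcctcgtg
Psme4: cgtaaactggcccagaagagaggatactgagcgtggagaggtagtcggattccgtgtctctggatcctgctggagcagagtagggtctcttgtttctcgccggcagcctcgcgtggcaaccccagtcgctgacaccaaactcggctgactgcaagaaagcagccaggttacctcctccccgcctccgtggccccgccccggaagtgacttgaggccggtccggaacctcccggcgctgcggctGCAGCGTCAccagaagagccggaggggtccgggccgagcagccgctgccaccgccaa

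The proteasome genes were expressed in nearly every cell. Each cell had a count for a median of 33 of the 34 core and regulatory genes in WT1, KO1 and KO3 and of 31 in WT2. Psmb3 had a count in 100% of the cells of WT1, KO1 and KO3 and in 97.7% of those of WT2. The rarest members were Psmc3ip, with a count in 26.1% to 33.3% of cells, and Psme3, with one in 33.0% to 60.9%.

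Levels of different genes were compared per kb of the principal annotated transcript, after TMM scaling (edgeR's correction for unequal composition of the libraries). Core genes had a median of 213 CPM per kb and the 20 regulatory genes, assembly chaperones included, of 138. Without the 3 assembly chaperones, whose median was 17.9, the regulatory median was 154. Psmb3 was the highest of all members at a mean over the 4 mice of 344 CPM per kb, and Psmb7 the lowest of the beta ring at 54.2. Psmb7 was thus the least abundant of the catalytic genes, with Psmb6 at 313 and Psmb5 at 188 CPM per kb. In the alpha ring the range ran from Psma1 at 343 to Psma3 at 114 CPM per kb, whose annotated transcript is long (2846 bases). Among the ATPases it ran from Psmc4 at 269 to Psmc6 at 92.1, and among the non-ATPase subunits from Psmd2, a scaffold of the base, at 203 to Psmd11 at 70.8.

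The assembly chaperones Psmd10 and Psmd5, which leave the finished particle, had 25.5 and 15.8 CPM per kb. Psme2 was the highest activator at 89.1 CPM per kb, ahead of Psme1 at 53.0, Psme3 at 11.9 and Psme4 at 7.31. The lowest was Psme2b at 2.44, a single-exon copy of Psme2 whose counts are uncertain because the estimate divides reads between the pair. The order of the genes hardly differed between mice: Spearman's rho of their levels lay between 0.938 and 0.983 for the 6 pairs of mice, a description across genes.

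**Figure D1:**
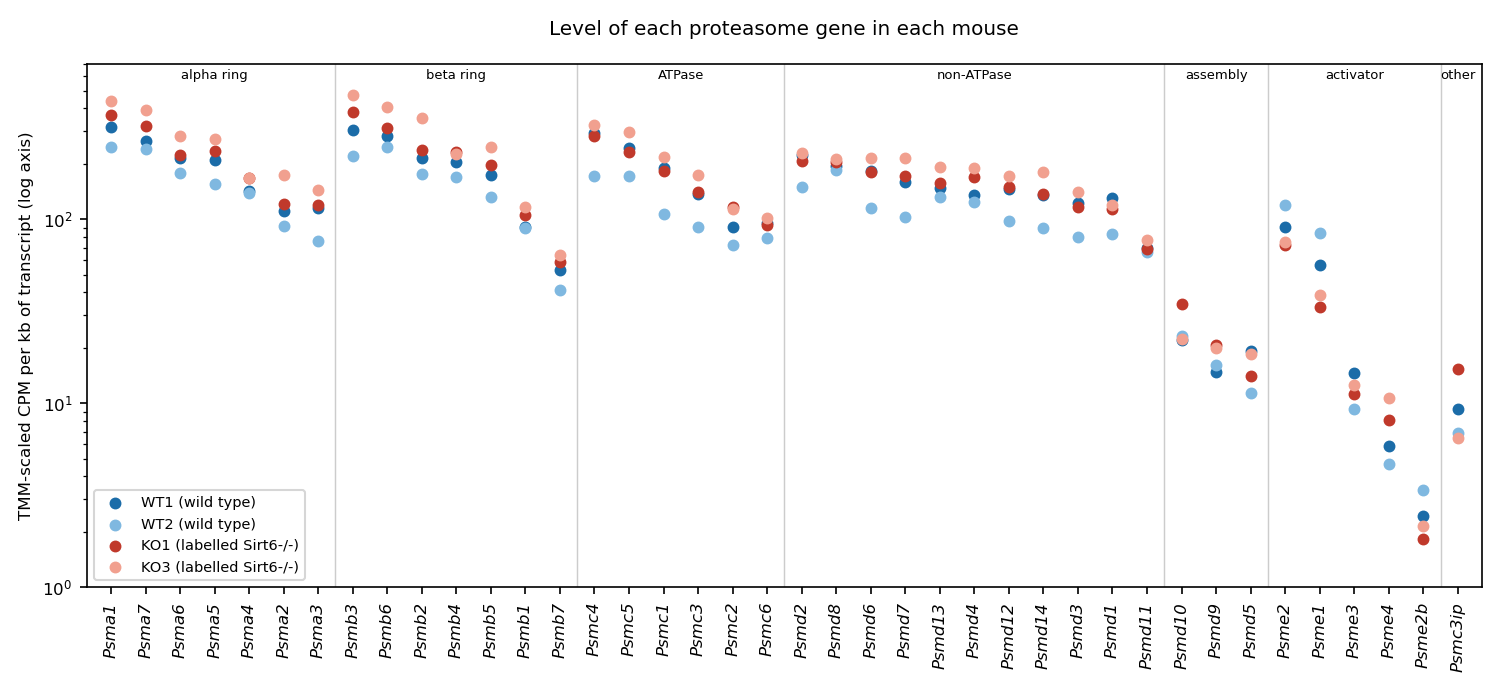
Level of each of the 40 genes in each mouse, in TMM-scaled CPM per kb of transcript on a log axis, grouped by place in the proteasome; each point is 1 mouse. Psmb3 (mean 344) and Psma1 (343) lead, assembly chaperones and activators lie lower, and WT2 is the lowest mouse for 32 of the 34 core and regulatory genes.

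The first comparison asked whether the genotype labels differ in proteasome expression. All 34 core and regulatory genes had a higher mean level in the mice labelled Sirt6-/-, with a median log2 difference of 0.39 and a range of 0.09 to 0.70. For 23 of them both mice labelled Sirt6-/- were above both wild-type mice, an order that held for 17.0% of the 16567 genes tested. No member passed the edgeR quasi-likelihood test after Benjamini-Hochberg adjustment (lowest adjusted p among the 34 genes 0.965). That test called 0 of all genes (0%), while 848 had an unadjusted p under 0.05 (5.12%), DESeq2 called 149 (0.899%), none of them among the 40 members, and limma-voom called 0. The median log2 difference of all genes tested was -0.01, and 8173 of them (49.3%) were positive.

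The core genes did not overlap between the labels, although none passed the adjusted test. All 14 core genes, 7 of 7 in the alpha ring and 7 of 7 in the beta ring, were higher in KO1 and in KO3 than in WT1 and WT2 (17.0% over all genes tested). The core genes had a median log2 difference of 0.47. Their summed level was 3182 CPM (WT1), 2587 (WT2), 3593 (KO1) and 4395 (KO3). The means were 2885 ± 421 CPM (SD, n = 2) for wild type and 3994 ± 567 (SD, n = 2) for the label Sirt6-/-, a fold of 1.39 (exact permutation test, two-sided, p = 0.333, the smallest that 2 against 2 mice allow). Without KO3 the median core difference was 0.30.

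Psmb3, a non-catalytic beta subunit, had the largest difference of the core. It stood at 234 CPM (WT1), 169 (WT2), 292 (KO1) and 360 (KO3). KO1 and KO3 thus lay above both wild-type mice, with a log2 difference of 0.70 (SE 0.26; edgeR unadjusted p = 0.0484, adjusted p = 0.965). Psmb2, another non-catalytic beta subunit, stood at 184 CPM (WT1), 152 (WT2), 205 (KO1) and 307 (KO3). Its groups did not overlap, with a log2 difference of 0.61 (SE 0.28), and KO1 lay nearer to WT1 than to KO3. Without KO3 its log2 difference was 0.29.

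The catalytic genes had the same order at smaller size. Psmb5, which carries the chymotrypsin-like activity, stood at 156 CPM (WT1), 119 (WT2), 176 (KO1) and 223 (KO3), with a log2 difference of 0.54 (SE 0.25). Psmb6, of caspase-like activity, stood at 227 CPM (WT1), 198 (WT2), 248 (KO1) and 327 (KO3), with a log2 difference of 0.44 (SE 0.23). Psmb7, of trypsin-like activity, stood at 61.3 CPM (WT1), 48.1 (WT2), 67.7 (KO1) and 74.5 (KO3), with a log2 difference of 0.38 (SE 0.23). Without KO3 the log2 difference was 0.35 for Psmb5 and 0.23 for Psmb6, and without WT2 it was 0.36 for Psmb5 and 0.21 for Psmb7, which reached 0.57 without WT1. In all 3 genes WT2 was lowest and KO3 highest, and KO1 was closer to WT1 than to KO3. Of the alpha ring, Psma2 had the largest difference, at 321 CPM (WT1), 266 (WT2), 352 (KO1) and 505 (KO3), and differed by 0.54 in log2 (SE 0.26), or by 0.26 without KO3.

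Among the 20 regulatory genes, both mice labelled Sirt6-/- exceeded both wild-type mice for 9 (17.0% over all genes tested): 2 of 6 ATPases, 6 of 11 non-ATPase subunits and 1 of 3 assembly chaperones. The median log2 difference was 0.37, and KO1 exceeded WT1 for 10 of the 20 genes. The summed regulatory level was 5096 CPM (WT1), 3645 (WT2), 5089 (KO1) and 5869 (KO3). WT1 and KO1 were nearly equal, and the fold of 1.25 between the group means gave p = 0.667 (exact permutation test, two-sided). Psmd7, a lid subunit, had the largest difference, at 251 CPM (WT1), 162 (WT2), 272 (KO1) and 342 (KO3), and differed by 0.57 in log2 (SE 0.30). Its difference was 0.29 without WT2 and 0.93 without WT1.

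The wild-type mice differed from each other about as much as the labels did. WT2 was the lowest mouse for 32 of the 34 genes, and KO3 the highest for 28. Over all genes tested, 4872 were lowest in WT2 and 4452 highest in KO3. Summed over the 34 genes the level was 8278 CPM (WT1), 6232 (WT2), 8682 (KO1) and 10264 (KO3), so KO1 was closer to WT1 than WT1 was to WT2. The fold between the labels was 1.31 (exact permutation test, two-sided, p = 0.333, the smallest possible). Without WT2 the median log2 difference of the 34 genes was 0.23, with 31 of 34 positive, and that of the regulatory genes 0.11. Without WT1 these medians were 0.61 and 0.59. The log2 difference of the summed level was 0.19 without WT2 and 0.60 without WT1, against 0.38 with all mice, and that of the summed regulatory level 0.10 and 0.59, against 0.33.

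**Figure D2:**
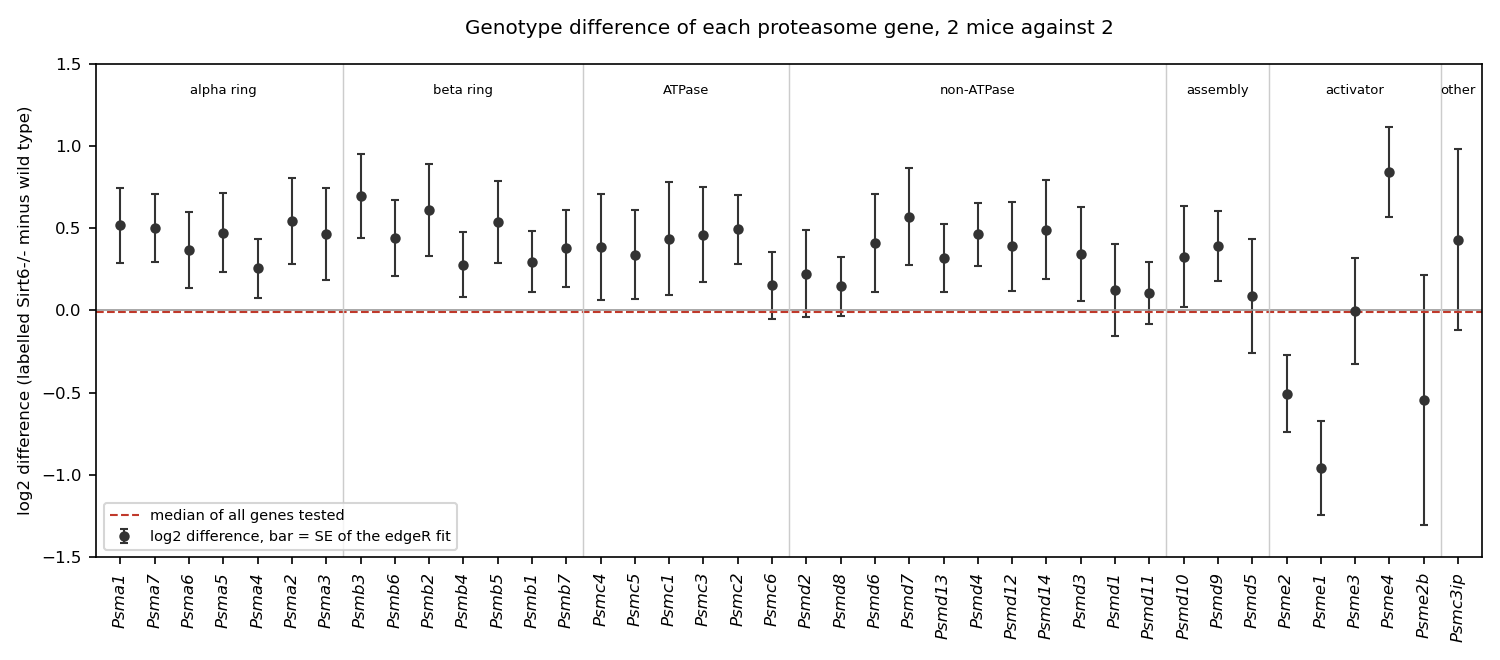
Log2 difference of each gene (mice labelled Sirt6-/- minus wild type) with the SE of the edgeR fit as bars, 2 mice against 2; the dashed line is the median of all genes tested (-0.01). All core and regulatory genes lie above 0, between 0.09 and 0.70, while Psme1 lies at -0.96 and Psme4 at 0.84.

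Single cells had the same order of mice. The share of a cell's counts on the 34 genes had a median of 0.839% (WT1), 0.596% (WT2), 0.905% (KO1) and 1.01% (KO3). The middle of the WT2 cells (0.455% to 0.695%, lower to upper quartile) lay below that of the other 3 mice, whose lowest lower quartile was 0.759%. WT2 was also the mouse with the fewest detected genes per cell. With every cell thinned to 500000 counts the median log2 difference of the 34 genes was 0.41. Thinning evens out total counts and not detected genes, so the part of detected genes in the result was not tested.

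**Figure D3:**
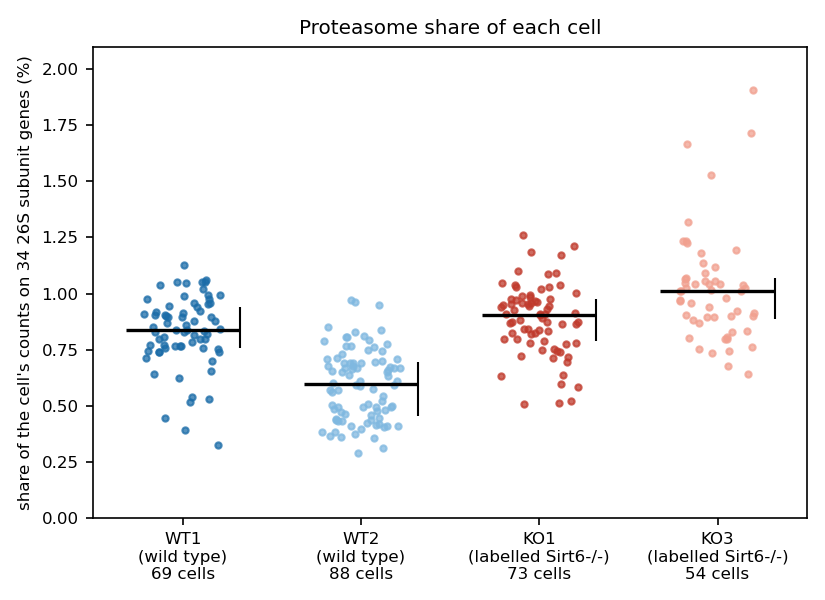
Share of each cell's counts on the 34 core and regulatory genes, in percent, by mouse; each point is 1 cell, the horizontal bar the median and the vertical bar the lower to upper quartile. Medians run from 0.596% in WT2 to 1.01% in KO3, and the cells of all 4 mice overlap.

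Keratinocyte differentiation markers also differed in order between the labels. Of 17 basal keratinocyte genes, 0 had a higher mean in the mice labelled Sirt6-/- and 11 were lower in both of them (18.7% over all genes tested), with a median log2 difference of -0.65. Of 18 suprabasal genes, 15 had a higher mean and 8 were higher in both (17.0% over all genes tested), with a median of 0.71. Their part in the proteasome difference was not tested.

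The activators did not follow the core. The 5 genes split: Psme1, Psme2 and Psme2b were lower in both mice labelled Sirt6-/-, Psme4 was higher in both, and Psme3 overlapped. Psme1, the PA28 alpha subunit, had the largest difference of all 40 members. It stood at 62.6 CPM (WT1), 93.0 (WT2), 37.0 (KO1) and 43.0 (KO3). Both mice labelled Sirt6-/- lay below both wild-type mice, an order found for 18.7% of all genes tested, with a log2 difference of -0.96 (SE 0.29; edgeR unadjusted p = 0.0245, adjusted p = 0.862). The share of cells with a Psme1 count was 89.9% (WT1), 87.5% (WT2), 65.8% (KO1) and 68.5% (KO3).

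Psme2, the PA28 beta subunit, stood at 86.9 CPM (WT1), 114 (WT2), 69.2 (KO1) and 72.5 (KO3). The groups did not overlap, with a log2 difference of -0.50 (SE 0.23) that was -0.29 without WT2. Psme1 and Psme2 together summed to 178 ± 40.8 CPM (SD, n = 2) in wild type and 111 ± 6.53 (SD, n = 2) under the label Sirt6-/-, a fold of 0.622 (exact permutation test, two-sided, p = 0.333, the smallest possible). Without WT2 the log2 difference of this sum was -0.43, against -0.69 with all mice.

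Psme4, the PA200 cap, stood at 37.8 CPM (WT1), 30.2 (WT2), 52.3 (KO1) and 69.5 (KO3). Its groups did not overlap, and its log2 difference of 0.84 was the second in size of the 40 genes (SE 0.27; edgeR unadjusted p = 0.0319, adjusted p = 0.901). Psme3, the PA28 gamma subunit, stood at 39.0 CPM (WT1), 24.7 (WT2), 30.1 (KO1) and 33.4 (KO3). The wild-type mice enclosed the others, and the log2 difference was -0.004 (SE 0.32). Psmc3ip, the recombination factor, also overlapped, at 12.0 CPM (WT1), 8.89 (WT2), 19.8 (KO1) and 8.38 (KO3).

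The 3 immunoproteasome genes, which replace the catalytic beta subunits after interferon, had the same direction as PA28. All 3 were lower in both mice labelled Sirt6-/- (18.7% over all genes tested) and had a median log2 difference of -1.36. Psmb10 differed by only -0.39 in log2 (SE 0.28). Psmb9 differed by -1.36 (SE 0.69) and had a count in 9.26% to 26.1% of the cells of a mouse. Psmb8 stood at 8.99 CPM (WT1), 26.1 (WT2), 5.82 (KO1) and 4.41 (KO3). WT2 stood above the rest, and the log2 difference of -1.78 (SE 0.64; edgeR unadjusted p = 0.0449, adjusted p = 0.962) was -0.81 without WT2. WT2 was also the mouse with the highest immune marker sum (20.9 CPM) and 19 of its 88 cells had an immune marker count, against 2 of 69 in WT1, 3 of 73 in KO1 and 3 of 54 in KO3. Without all those cells, a choice made after the data were seen, the log2 difference was -1.57 for Psmb8 and -0.96 for Psme1.

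The balance of the particles was compared as mean regulatory over mean core level per kb, with the 3 assembly chaperones among the regulatory genes. These chaperones, at a median of 17.9 CPM per kb, lower the ratio in every mouse. The ratio was 0.715 (WT1), 0.624 (WT2), 0.634 (KO1) and 0.602 (KO3). KO1 and WT2 were nearly equal and WT1 stood above, so the label Sirt6-/- differed from wild type by -0.11 in log2 ratio (exact permutation test, two-sided, p = 0.667). Taking the median in place of the mean level gave 0.09, of opposite sign. With the mean, the difference was -0.02 without WT1, -0.21 without WT2 and -0.07 without KO3, so its size rests on single mice. Core genes were in every mouse the higher per kb, at a mean of 193 (WT1), 158 (WT2), 220 (KO1) and 269 (KO3), and regulatory genes had 138, 98.4, 139 and 162 in that order.

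Of 49 other genes of the ubiquitin and proteasome system, with the 3 immunoproteasome genes above counted again, 0 passed the edgeR test. An unadjusted p under 0.05 was found for 3 (6.12%, near the 5.12% of all genes tested). Psmb8 was 1 of them, and Nfe2l1 and Mafg, given below, were the others. In both mice labelled Sirt6-/- 14 were higher (17.0% over all genes tested) and 13 lower (18.7%), with a median log2 difference of -0.03. The following were named after their values were seen. Nfe2l1, which encodes NRF1, stood at 108 CPM (WT1), 131 (WT2), 69.3 (KO1) and 65.3 (KO3). It was thus lower in both mice labelled Sirt6-/-, opposite in direction to the 34 core and regulatory genes (log2 difference -0.83, SE 0.21, edgeR adjusted p = 0.809). The share of cells with an Nfe2l1 count overlapped between the labels, at 78.3% (WT1), 68.2% (WT2), 60.3% (KO1) and 79.6% (KO3). Only the Nfe2l1 transcript was measured, and its part in the levels of the 34 genes was not tested. Mafg, a small Maf partner of NRF1 and NRF2, stood at 44.1 CPM (WT1), 34.3 (WT2), 67.5 (KO1) and 62.8 (KO3), and differed by 0.73 in log2 (SE 0.24; edgeR adjusted p = 0.907).

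Nfe2l2, which encodes NRF2, overlapped between the labels, at 488 CPM (WT1), 255 (WT2), 388 (KO1) and 460 (KO3). Uchl5, a deubiquitinase bound to the 19S particle, stood at 115 CPM (WT1), 96.4 (WT2), 137 (KO1) and 226 (KO3). Its groups did not overlap (log2 difference 0.78, and 0.37 without KO3), whereas Usp14, the other proteasome-bound deubiquitinase of the list, overlapped (217, 149, 188 and 171 CPM in the same order). Of the 8 assembly factors and inhibitors 7 had a higher mean in the mice labelled Sirt6-/-, with Pomp, the chaperone of core maturation, at 61.3 CPM (WT1), 71.7 (WT2), 76.8 (KO1) and 90.9 (KO3). Vcp, the segregase that extracts ubiquitin-tagged proteins, was nearly level (285, 286, 282 and 284 CPM).

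The second question was whether the subunit genes vary together from cell to cell inside a mouse. For this, log2(CPM + 1) per cell was freed of its linear trends on total counts and detected genes, and correlations are descriptions without a p. The cells of a mouse shared an animal and mostly a plate. The mean pairwise Pearson r among the 14 core genes was 0.158 (WT1), 0.125 (WT2), 0.0880 (KO1) and 0.188 (KO3). Among the 20 regulatory genes it was 0.0825 (WT1), 0.0704 (WT2), 0.0480 (KO1) and 0.0880 (KO3). Between core and regulatory genes it was 0.119 (WT1), 0.0561 (WT2), 0.0567 (KO1) and 0.0804 (KO3). The core value exceeded the regulatory value in each of the 4 mice, and all lay above the mean over pairs of the 8474 genes that passed the same detection limit (0.0011 to 0.0035). The regulatory value includes the 3 assembly chaperones, and it was not computed as a single value without them. Between base and lid genes, which leave the chaperones out, mean r was 0.0954 (WT1), 0.0732 (WT2), 0.0852 (KO1) and 0.142 (KO3). In each mouse this was above the regulatory value and below the core value, in KO1 only slightly below the core. In KO1 the base alone had 0.0910, above the core, whereas in the other mice the base was below the core.

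The beta ring averaged 0.127 to 0.241 over the mice and the alpha ring 0.0573 to 0.208. The base (0.0910 to 0.118) and the lid (0.0329 to 0.136) were lower than the beta ring, except for the lid in KO3. The 3 assembly chaperones had a mean r with the other core and regulatory genes of 0.0562 (WT1), 0.0393 (WT2), -0.0237 (KO1) and -0.0078 (KO3). Other gene sets gave a scale: cytosolic ribosomal protein genes reached 0.475 to 0.545 and CCT chaperonin genes 0.120 to 0.210, while the COP9 signalosome, a relative of the lid, had 0.0061 to 0.0155. Nuclear oxidative phosphorylation genes had 0.111 to 0.167 (mean 0.148) and glycolysis genes 0.118 to 0.272 (mean 0.195). Both means were above that of the core (0.140). Summed into a core score and a regulatory score, the particles correlated at r = 0.708 (WT1), 0.379 (WT2), 0.468 (KO1) and 0.444 (KO3). Of the 561 pairs among the 34 genes, 324 to 382 were positive in a mouse, and the median pair lay between 0.0280 and 0.0943. The highest pair of each mouse reached 0.870 in WT1 (Psmb4 with Psmd8), 0.530 in WT2 (Psma2 with Psmb3), 0.797 in KO1 (Psmb2 with Psmb6) and 0.803 in KO3 (Psmb2 with Psmd7).

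**Figure D4:**
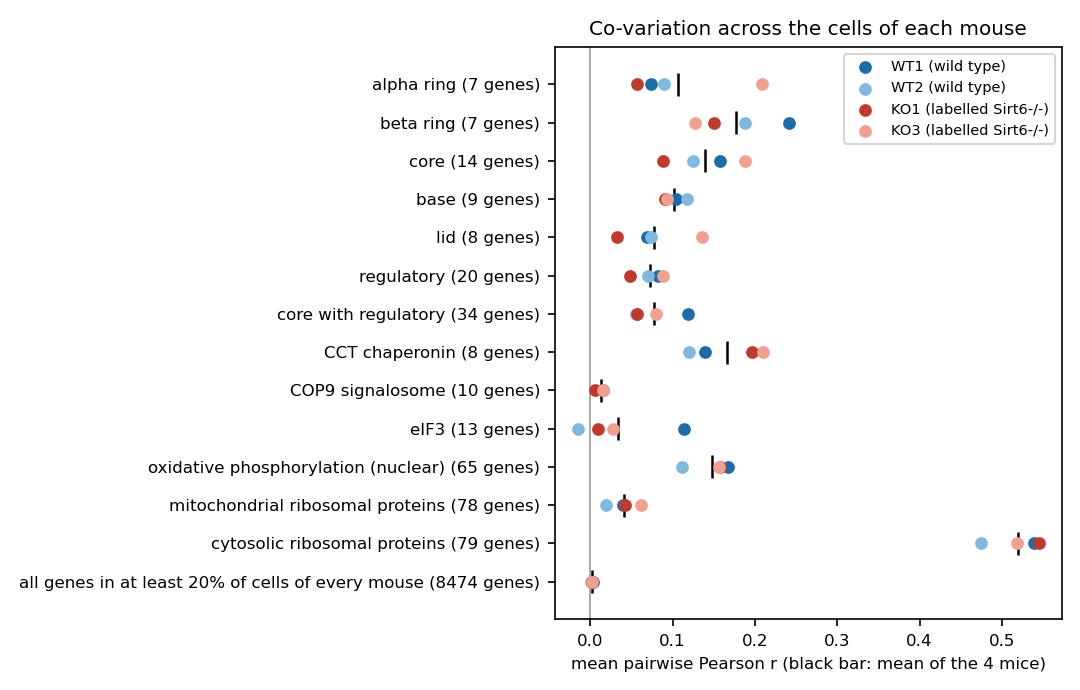
Mean pairwise Pearson r across the cells of each mouse within proteasome parts and within other complexes; points are mice and black bars the mean of the 4. In each mouse core genes (0.0880 to 0.188) lie above regulatory genes (0.0480 to 0.0880, assembly chaperones included) and far below cytosolic ribosomal protein genes (0.475 to 0.545).

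Each gene was also set against the mean score of the other core and regulatory genes. Psmb2 followed the rest most closely, with r = 0.581 (WT1), 0.336 (WT2), 0.427 (KO1) and 0.597 (KO3). Psmb5 followed at a mean of 0.435, Psmc2, an ATPase, at 0.432 and Psma5, an alpha subunit, at 0.376. Psmb2 and Psmb5 are both beta subunits, and all 4 genes were positive in every mouse. At the other end stood Psme1 with a mean of -0.0982, Psme4 with -0.0696, and the assembly chaperones Psmd10 with 0.0091 and Psmd9 with 0.0303. Psme4, whose level was higher beside the core in both mice labelled Sirt6-/-, had r = 0.0893 (WT1), 0.140 (WT2), -0.261 (KO1) and -0.247 (KO3). Psmd10, Psmd9 and Psme4 are also among the members with counts in the fewest cells, at 44.3% of the WT2 cells for Psmd10.

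The score over the 34 genes was then set against other gene lists in each mouse. The lists held 7 to 79 genes, and their order was not adjusted for size. Mitochondrial ribosomal protein genes (78 genes) had the highest mean r, 0.608 over the 4 mice (0.483 to 0.670). Oxidative phosphorylation genes (65 genes) followed at 0.516 and glutathione and antioxidant genes (30 genes) at 0.482. Glycolysis genes had 0.400 (0.185 to 0.514). G2/M genes (0.0548) and S phase genes (0.0421) were near 0 on average and differed in sign between mice. Basal keratinocyte genes were negative in all 4 mice (-0.409 to -0.122, mean -0.239) and suprabasal genes positive in all 4 (mean 0.228).

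**Figure D5:**
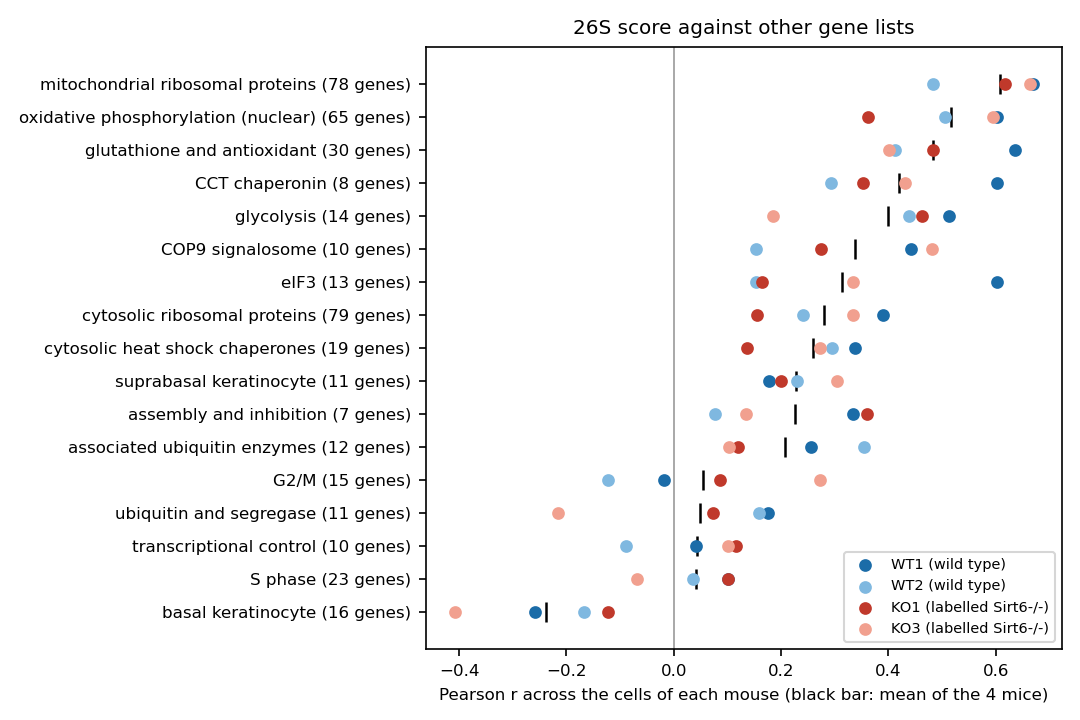
Pearson r across the cells of each mouse between the score over the 34 core and regulatory genes and the score of each list; points are mice and black bars their mean. Mitochondrial ribosomal protein genes (mean 0.608) are at the top and basal keratinocyte genes (mean -0.239) at the bottom, negative in all 4 mice.

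The single genes most like the score were ranked by mean r over the 4 mice among 8440 genes outside it. Of these 1516 were positive in all 4 mice, the median was 0.0176 and the 95th percentile 0.227. Eif5a, a translation factor, came first with a mean r of 0.561 (0.486 (WT1), 0.604 (WT2), 0.559 (KO1) and 0.596 (KO3)). Ldha, lactate dehydrogenase A, came next with 0.535, then Ddx39, an RNA helicase, with 0.509 and Nme1, a nucleoside diphosphate kinase, with 0.508. The processed pseudogene Gm3375 (0.497) is uncertain, since such copies share reads with their parent genes. Ebna1bp2 (0.456), the peroxiredoxin Prdx1 (0.450), the retinoic acid binding protein Crabp2 (0.448), the glutathione transferase Gsto1 (0.441) and the mitochondrial ribosomal protein Mrpl17 (0.431) completed the first 10. All 10 were positive in every mouse, a condition of the ranking.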

How the data were processed

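Expression was measured in 284 sorted single cells of 4 mice. The authors deposited expected counts of genes in single cells; the submitters' processing notes name STAR, RSEM and the build mm10 (GRCm38), without versions. Fractional values made up 21.5% of the non-zero entries, which matters for near-identical copies. Counts are reads without molecular identifiers. Symbols and transcript lengths came from GENCODE M21 (53857 of 54247 IDs matched).

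Counts were summed per mouse, rounded and tested with edgeR 4.0.16 in R 4.3.3 (TMM, filterByExpr, quasi-likelihood test, two-sided, Benjamini-Hochberg over 16567 genes, threshold 0.05, 2 residual degrees of freedom). DESeq2 1.42.0 and limma-voom (limma 3.58.1) were alternatives. Single values per mouse had exact permutation tests over mice. Correlations used log2(CPM + 1) per cell. Per-kb levels used the principal (APPRIS) transcript, the longest where several tied. Scripts were tested on simulated data.

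The genes and lists were chosen with earlier results of these data known. Genes named with full values were the catalytic subunits, the highest and lowest per kb in each class, the 6 largest genotype differences, the 4 highest and 4 lowest correlations with the other members, members not used, and the 10 most similar outside genes. No cell was left out.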

Additional observations from a re-analysis of the deposited data

How the results depend on the processing

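With 2 mice per genotype, 1 library can decide a value, and the plate cannot be separated from the label. No paired analysis was possible because the mouse numbers of the genotypes share only 1. All 34 core and regulatory genes kept a positive difference under DESeq2, limma-voom, no filter on low counts, the 10 CPM filter, the main plates only, thinning, per-cell means and removal of cells with an immune marker count (the last chosen after seeing the data, as was the merged-exon length). Leaving out 1 mouse gave 31 to 34 positive genes. The number of genes called was 149 with DESeq2 and 1 with at least 10 CPM in 2 mice. With the mean log2(CPM + 1) per cell, the regulatory median was 0.71, the core median 0.59 and that of all 34 genes 0.60. The core was thus below the regulatory genes, the reverse of 0.47 and 0.37 in the main setting. With the same per-cell means the log2 difference was -1.58 for Psme1, -1.02 for Psme2, 1.44 for Psme4, -1.03 for Psmb8 and 1.51 for Mafg. The ratio of regulatory to core level differed by 0.0883 with median per-length levels, the reverse of -0.11. With no trend removed, mean r was 0.213 for core, 0.139 for regulatory and 0.151 between them, against 0.140, 0.0722 and 0.0779. Psme3, near 0 (-0.004), turned positive with DESeq2 (0.0047), limma-voom (0.0375), the 10 CPM filter (0.0025), the main plates (0.0093), per-cell means (0.36) and without immune-marker cells (0.0877), and ranged from -0.30 to 0.37 when 1 mouse was left out. Usp14 (-0.03) turned positive with limma-voom (0.0026), thinning (0.0184) and per-cell means (0.1552), and Vcp (-0.01) without immune-marker cells (0.0043). With 1 mouse left out, Usp14 ranged from -0.27 to 0.28, Vcp from -0.0186 to 0.0019, Nfe2l2 from -0.20 to 0.75 and Psmc3ip from -0.31 to 0.92. The causes were not tested.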

Other observations

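Other complexes of similar build differed less between the labels. The CCT chaperonin had 7 of 8 genes with a higher mean in the mice labelled Sirt6-/- and a median log2 difference of 0.21, the COP9 signalosome 8 of 10 and 0.12, and the translation factor eIF3 10 of 13 and 0.08. Oxidative phosphorylation genes (60 of 65, median 0.31) and mitochondrial ribosomal protein genes (73 of 78, median 0.37) had medians nearer to that of the 34 proteasome genes. The lists were not tested against each other.

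Where a mouse was spread over plates, the proteasome share of summed counts could be read on each. It was 0.896% in the 65 cells of KO1 on plate 1 and 0.835% in its 8 cells on plate 2, where the 54 cells of KO3 had 1.03%. On plate 3 the 69 cells of WT1 had 0.844% and the 7 cells of WT2 had 0.653%, and the 81 cells of WT2 on plate 4 had 0.591%. KO1 lay below KO3 on plate 2 and WT2 below WT1 on plate 3, as over all their cells. These orders rest on 8 cells of KO1 and 7 of WT2, and each plate held a single genotype. The part of the plate in the levels was not tested.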
